A study of Mus musculus with 6 samples.

Results

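The 10 genes described here encode the 5 subunits of the transcription factor NF-kB (Nfkb1, Nfkb2, Rel, Rela and Relb) and 5 proteins that hold it back or act in its feedback (Nfkbia, Nfkbie, Nfkbiz, Tnfaip3 and Birc3). They were taken by name from a table of 38924 rows, and all 10 passed the filter on low values and were tested. The genes were chosen with earlier results of these data known, among them that the control libraries disagreed for Relb and Nfkb2, so their levels in the controls are given library by library and as a description.

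Expression was measured by RNA sequencing in bone marrow cells of C57BL/6 recipients, transplanted with marrow that carried a transferred gene. The mock group (n = 2 libraries) had marrow transduced with GFP alone and was collected 4 weeks after transplantation. The preleukemia group (n = 2) had marrow transduced with Evi1 and GFP and was collected at the same 4 weeks, and the leukemia group (n = 2) had the same Evi1 marrow collected at 6 months. In every group the cells were GFP+, Lin- and c-kit+, that is, transduced progenitors that lack markers of mature lineages and carry the receptor Kit. No mock libraries at 6 months were among the samples, so that in a comparison with leukemia the time after transplantation and the disease cannot be told apart. The label "preleukemia" states a stage, not a measured outcome, and no label ties the libraries of a pair to different animals. P-values therefore refer to the spread among libraries, part of which may be technical.

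NF-kB subunits bind DNA as dimers. In resting cells IkB proteins, such as the products of Nfkbia and Nfkbie, hold the dimers in the cytoplasm. Signals from TNF, interleukin-1 and Toll-like receptors activate the IkB kinase complex, the IkB proteins are degraded and the dimers enter the nucleus (the canonical route, mostly Rela, Rel and the p50 form of Nfkb1). A slower route through the kinase NIK processes the Nfkb2 precursor to p52, which pairs with Relb. Nfkbia, Nfkbie, Tnfaip3, Birc3, Nfkb2, Rel and Relb are themselves textbook NF-kB targets, so the pathway induces several of its own subunits and brakes. In blood-forming cells the pathway is known for its part in inflammatory responses and in the survival of some leukemias.

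The labels were checked on Mecom, the gene that encodes Evi1. It stood at 0.774 and 0.805 RPKM (reads per kilobase of transcript, scaled to the library's total reads) in mock, 78.0 and 80.1 in preleukemia, with 61.7 and 71.5 in leukemia, so every Evi1 library was far above both mock libraries. The deposited values imply 16922987 to 21641748 reads per library, at which 3 reads on a transcript of 1 kb are worth 0.139 to 0.177 RPKM. The markers of the sort were present: all 10 progenitor markers, Kit among them, reached 1 RPKM in mock and preleukemia and 8 of 10 did in leukemia, where Hlf was listed at 0. The mock libraries differed from each other more than the other pairs did, with a median absolute difference of 0.22 on the log2(RPKM + 1) scale against 0.11 within the preleukemia pair and 0.11 within the leukemia pair.

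Stretches before the start of transcription are shown for 4 genes: Nfkbia and Tnfaip3, which were lower in every Evi1 library than in mock, and Rel and Nfkbie, which stood 4.01 and 4.86 times higher in mock library 2 than in library 1. They come from the RefSeq entries on GRCm38.p6, which hold the 250 bases before a RefSeq start, less any bases that GENCODE counts as untranslated region of the same gene. They read 5′ to 3′ in the direction of the gene, and capitals mark matches, on either strand, to the kB consensus, the 10-base sequence bound by NF-kB dimers. Nfkbia is shown at chr12:55492648-55492897 (minus strand), up to a RefSeq start that is also the start of the GENCODE gene. Tnfaip3 is shown at chr10:19015411-19015547 (minus), up to a RefSeq start that lies 247 bases inside the GENCODE gene, where a longer transcript begins earlier. Rel is shown at chr11:23770971-23771219 (minus) and Nfkbie at chr17:45555450-45555699 (plus), with RefSeq starts within 3 bases of the GENCODE starts.
Nfkbia: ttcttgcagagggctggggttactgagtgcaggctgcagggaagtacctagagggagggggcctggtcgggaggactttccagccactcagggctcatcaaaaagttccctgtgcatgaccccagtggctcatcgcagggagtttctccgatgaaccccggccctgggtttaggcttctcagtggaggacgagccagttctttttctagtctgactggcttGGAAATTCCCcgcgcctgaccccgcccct
Tnfaip3: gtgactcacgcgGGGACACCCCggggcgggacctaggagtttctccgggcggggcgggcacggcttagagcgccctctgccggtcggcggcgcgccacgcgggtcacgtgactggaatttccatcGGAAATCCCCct
Rel: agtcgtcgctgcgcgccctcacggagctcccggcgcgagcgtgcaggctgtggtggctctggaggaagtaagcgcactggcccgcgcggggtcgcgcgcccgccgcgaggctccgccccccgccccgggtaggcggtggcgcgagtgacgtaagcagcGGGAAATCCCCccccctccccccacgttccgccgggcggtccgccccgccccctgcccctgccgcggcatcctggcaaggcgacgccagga
Nfkbie: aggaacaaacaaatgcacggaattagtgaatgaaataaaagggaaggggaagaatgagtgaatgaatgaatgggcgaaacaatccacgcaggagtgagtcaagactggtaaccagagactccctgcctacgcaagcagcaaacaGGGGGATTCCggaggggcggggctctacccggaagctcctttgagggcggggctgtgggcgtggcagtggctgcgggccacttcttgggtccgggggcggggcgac
Counted from the RefSeq start, the match in Nfkbia began 29 bases before it, those in Tnfaip3 125 and 12, those in Rel 92 and 91, which overlap, and that in Nfkbie 106. RefSeq promoter entries were matched for 7 of the 10 genes (10 entries), and 5 of the 7 genes held the consensus in at least 1 entry: these 4 and Nfkb2. The stretches shown are thus all of genes with a match. Birc3, which stood 3.65 times higher in mock library 2 than in library 1, held none. Rela, lower in every Evi1 library than in mock, held none either. Counted by entry, 7 of the 10 held the consensus. A second entry of Tnfaip3 (chr10:19011964-19012213) did not. The 3 entries of Nfkb2 each held it, but their RefSeq starts lie 417, 1375 and 1610 bases inside the GENCODE gene. Among all 32851 promoters of the same 250 bases, 7.25% held it. The looser core GGGNNNNNCC, which every consensus match also fulfils, was present in 7 of 7 genes and in 45.8% of all promoters. A match is a description of letters, not evidence of binding.

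Of the subunits, Nfkb1 and Rela had the highest levels in every group. Nfkb1 (ENSMUSG00000028163.17, chr3:135584655-135691547, minus strand) encodes p105, the precursor of p50. Its level was 33.9 and 49.3 RPKM in mock, 41.7 and 43.3 in preleukemia, with 66.1 and 62.9 in leukemia. Both leukemia libraries lay above the other 4, and the preleukemia libraries lay between the mock libraries. By limma the leukemia mean of 64.5 ± 2.2 RPKM (SD, n = 2) was 1.55 times the mock mean of 41.6 ± 10.9 (0.64 on the log2(RPKM + 1) scale, SE 0.17, adjusted p = 0.0337). This rise lost the test with no filter on low values (adjusted p = 0.0865), with only the 4 libraries compared (0.0698), without either preleukemia library (0.0706 without library 1, 0.0704 without library 2), which share in the estimate of the spread, and without leukemia library 1 (0.145) or 2 (0.126). The preleukemia difference from mock was 0.05 (adjusted p = 0.851), and its sign turned under other scalings.

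Rela (ENSMUSG00000024927.8, chr19:5637483-5648130, plus strand) encodes p65, the main activating subunit of the canonical route. It stood at 30.0 and 51.9 RPKM in mock, 23.8 and 26.1 in preleukemia, with 29.4 and 28.9 in leukemia. All 4 Evi1 libraries lay below both mock libraries, although the leukemia libraries nearly touched mock library 1. The difference from mock was -0.64 in preleukemia (SE 0.23, adjusted p = 0.0976) and -0.43 in leukemia (adjusted p = 0.215), neither past the test. Rel (ENSMUSG00000020275.9, chr11:23736847-23770970, minus strand) encodes c-Rel, best known from lymphocytes. Its level was 11.7 and 47.1 RPKM in mock, 6.4 and 6.37 in preleukemia, with 10.8 and 10.4 in leukemia. The Evi1 libraries were again below both mock libraries, and preleukemia was below leukemia. The preleukemia mean was 0.544 times mock library 1 and 0.136 times mock library 2. With both mock libraries the difference was -1.74 (SE 0.53, adjusted p = 0.0642) and did not pass, although with array weights it did (adjusted p = 0.0388). Against mock library 1 alone the difference was -0.79 and against library 2 alone -2.70. In such a fit only the Evi1 pairs give the spread, so the gap between the mock libraries does not enter its p-value.

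The subunits of the slower route were the least settled. Nfkb2 (ENSMUSG00000025225.15, chr19:46304320-46312385, plus strand) encodes p100, the precursor of p52. It stood at 8.31 and 42.3 RPKM in mock, 6.5 and 7.33 in preleukemia, with 7.19 and 7.06 in leukemia. Mock library 2 was 5.08 times library 1, while the other 5 libraries were close together with mock library 1 the highest of them. The difference from mock was -1.34 in preleukemia (SE 0.61, adjusted p = 0.167) and -1.30 in leukemia (0.162). Against mock library 1 alone it was -0.24 in preleukemia and against library 2 alone -2.45. Nfkb2 shares 299 exon bases with Psd and 531 with AC114539.1 on the opposite strand, and reads of these genes cannot be told apart in libraries that do not mark the strand.

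Relb (ENSMUSG00000002983.17, chr7:19606217-19629438, minus strand) encodes the partner of p52 and had the lowest mean of the 10 genes in every group. It stood at 0.857 and 14.9 RPKM in mock, 1.31 and 1.08 in preleukemia, with 1.62 and 1.91 in leukemia. The Evi1 libraries lay between the mock libraries, above library 1 and far below library 2. The values of mock correspond to 72 and 1167 reads, with exact Poisson 95% intervals of 56.3 to 90.7 and 1101 to 1236 reads that cover counting error only. The gap of 3.09 on the log2(RPKM + 1) scale between the mock libraries exceeded that of every other gene tested. The preleukemia mean was 1.39 times mock library 1 and 0.0804 times mock library 2. For leukemia the ratios were 2.06 and 0.119. The differences from mock were -1.31 in preleukemia (SE 0.86, adjusted p = 0.316) and -0.98 in leukemia (0.435). Without mock library 2 both signs turned, to 0.24 and 0.57.

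**Figure D1:**
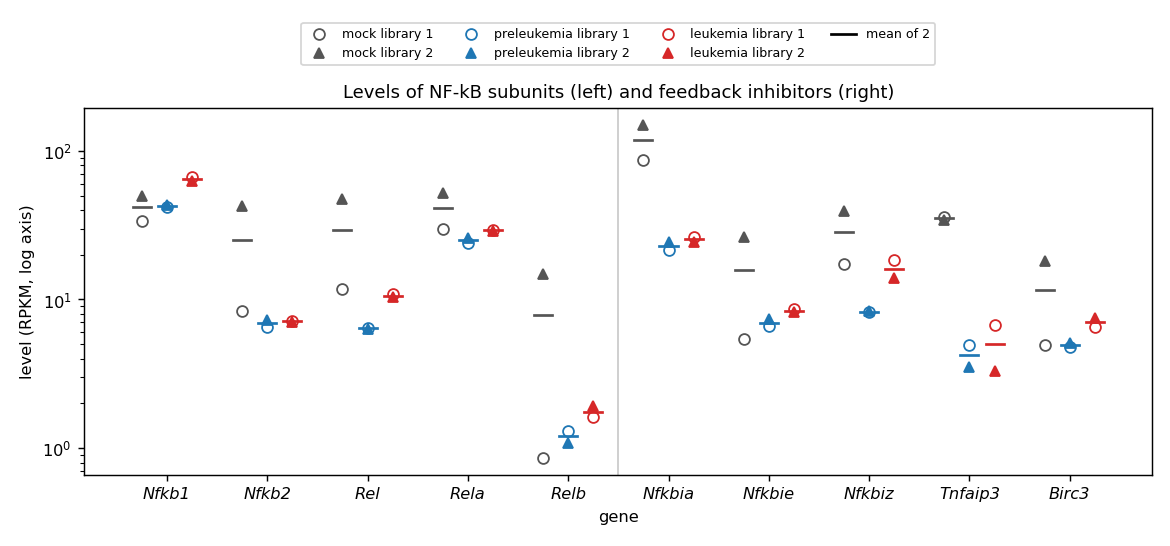
Level in RPKM (log axis) of the 5 subunits (left of the line) and the 5 feedback inhibitors (right) in each library, with circles for library 1, triangles for library 2 and bars for the mean of 2. Mock library 2 lies above mock library 1 for 9 of the 10 genes, by up to 17.3-fold for Relb, whereas for Tnfaip3 the mock libraries stand together at 35.9 and 34.3 RPKM.

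Of the inhibitors, Nfkbia and Tnfaip3 were lower in every Evi1 library than in either mock library, by amounts well beyond the gap between the mock libraries. Nfkbia (ENSMUSG00000021025.8, chr12:55489410-55492647, minus strand) encodes IkB-alpha, the inhibitor that NF-kB induces first and that ends a canonical response. It stood at 86.6 and 149 RPKM in mock, 21.5 and 24.3 in preleukemia, with 26.5 and 24.5 in leukemia. The 4 Evi1 libraries were close together, and the lower mock library was more than 3 times the highest of them. The preleukemia mean (22.9 ± 1.97 RPKM, SD, n = 2) was 0.194 times the mock mean (118 ± 44.2), and the leukemia mean (25.5 ± 1.46) 0.216 times. By limma the differences were -2.27 (SE 0.24, adjusted p = 0.00213) and -2.11 (adjusted p = 0.00185). They stood past the test under all 18 alternatives, from -2.66 to -1.88 in preleukemia and -2.50 to -1.73 in leukemia, where the ends are the fits against mock library 2 and library 1 alone.

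Tnfaip3 (ENSMUSG00000019850.11, chr10:19000910-19015657, minus strand) encodes A20, an enzyme that edits ubiquitin chains on signalling proteins and shuts off the pathway above the IkB kinases. It stood at 35.9 and 34.3 RPKM in mock, 4.92 and 3.5 in preleukemia, with 6.73 and 3.31 in leukemia. The mock libraries agreed here, with library 2 at 0.958 times library 1, and every Evi1 library was far below them. In reads the mock libraries held 5601 and 5014 and the Evi1 libraries 470 to 1022. The preleukemia mean (4.21 ± 1.0 RPKM, SD, n = 2) was 0.12 times the mock mean (35.1 ± 1.08), and the leukemia mean (5.02 ± 2.42) 0.143 times. By limma the differences were -2.80 (SE 0.27, adjusted p = 0.00169) and -2.64 (adjusted p = 0.00146). Under the 18 alternatives they ran from -3.15 to -2.61 and from -3.07 to -2.22, past the test each time. Preleukemia and leukemia overlapped, and their difference was 0.16 (adjusted p = 0.731).

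Nfkbiz (ENSMUSG00000035356.17, chr16:55811375-55838899, minus strand) encodes IkB-zeta, a nuclear IkB protein that acts on secondary target genes. It stood at 17.2 and 39.6 RPKM in mock, 8.2 and 8.32 in preleukemia, with 18.3 and 14.0 in leukemia. Preleukemia was below all other libraries, and leukemia overlapped with mock library 1. The preleukemia mean (8.26 ± 0.0907 RPKM, SD, n = 2) was 0.291 times the mock mean (28.4 ± 15.8), a difference of -1.56 (SE 0.34, adjusted p = 0.0244 by limma). It was -0.98 against mock library 1 alone. The call was lost without preleukemia library 1 (-1.55, adjusted p = 0.114) or library 2 (-1.57, 0.133), where the lone library is assumed to vary like the other groups, and with no filter on low values (-1.56, 0.086). In leukemia the difference from mock was -0.68 (adjusted p = 0.188).

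Nfkbie and Birc3 behaved like Nfkb2 and Relb in that mock library 2 stood apart. Nfkbie (ENSMUSG00000023947.8, chr17:45555703-45563169, plus strand) encodes IkB-epsilon, a later and slower inhibitor than IkB-alpha. Its level was 5.42 and 26.4 RPKM in mock, 6.59 and 7.35 in preleukemia, with 8.57 and 8.26 in leukemia. All Evi1 libraries lay between the mock libraries, close to library 1. The differences from mock were -0.74 in preleukemia (SE 0.58, adjusted p = 0.405) and -0.49 in leukemia (0.563). Against mock library 1 alone the leukemia difference was 0.55 and against library 2 alone -1.54, that is, in opposite directions.

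Birc3 (ENSMUSG00000032000.17, chr9:7848699-7873186, minus strand) encodes cIAP2, a ubiquitin ligase of the TNF receptor complexes that also keeps NIK low. It stood at 4.95 and 18.1 RPKM in mock, 4.82 and 5.06 in preleukemia, with 6.51 and 7.53 in leukemia. Preleukemia lay on both sides of mock library 1, leukemia was above it, and mock library 2 was above all. The differences from mock were -0.84 in preleukemia (SE 0.47, adjusted p = 0.249) and -0.41 in leukemia (0.553). Without mock library 2 they were -0.00 and 0.43.

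The order of the levels, which RPKM allows because it is per length, changed between groups. In mock, Nfkbia had the highest mean (118 RPKM) and did not overlap with the next, while from Nfkb1 (41.6) and Rela (40.9) down to Relb (7.86) every gene overlapped with its neighbour in the order. In preleukemia Nfkb1 led (42.5 RPKM), followed by Rela (25.0) and Nfkbia (22.9), which overlapped. Below them stood Nfkbiz (8.26), Nfkbie (6.97) and Nfkb2 (6.92), the last pair overlapping, then Rel (6.38), apart from the next. Birc3 (4.94) and Tnfaip3 (4.21) overlapped, and Relb (1.2) was last. In leukemia the order began with Nfkb1 (64.5 RPKM), Rela (29.2), Nfkbia (25.5), Nfkbiz (16.1), Rel (10.6) and Nfkbie (8.41), none overlapping with the next. Nfkb2 (7.12), Birc3 (7.02) and Tnfaip3 (5.02) overlapped in turn, and Relb (1.76) was last.

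The difference between the mock libraries ran through most of the 10 genes. In 6 of 10 (Relb, Nfkb2, Nfkbie, Rel, Birc3 and Nfkbiz) mock library 2 was higher by at least 1 on the log2(RPKM + 1) scale, whereas 1.57% of the 10958 genes tested were higher there by as much and 0.73% lower. The median of the 10 was 1.42, against -0.07 over all genes tested. None of the 10 was as far apart between the preleukemia libraries (0.63% of all tested genes were) or between the leukemia libraries (0.867%). Because the genes were chosen with part of this difference known, these counts describe the 10 genes and test nothing.

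Some other genes with large gaps between the mock libraries lay on the lists of NF-kB target genes and of immediate-early genes, which cells switch on within minutes of a stimulus or of handling. Mock library 2 was higher by at least 1 for 9 of 27 tested target genes (median 0.43) and for 8 of 21 immediate-early genes (median 0.67). It held for 3 of 17 tested inhibitors outside the 10 genes (Zc3h12a, Bcl3 and Nfkbid, named after their values were seen; median 0.14). On the lists of the upstream pathway this held for 1 of 12 kinases, 1 of 15 receptors, 2 of 27 adaptors and 1 of 6 ligands, with medians from 0.02 to 0.16. The receptor Il1rl1 was lower by more than 1 (-1.15). Over all genes tested 172 (1.57%) were higher by at least 1, with a median of -0.07, and most of the 172 lay on none of these lists. The lists were written with earlier results known, so their counts are a description. The largest gaps on all these lists were those of the immediate-early genes Nr4a1 (45.9 and 226 RPKM in mock), Nr4a2 (6.17 and 25.6) and Fosl2 (12.4 and 45.3), of Ptgs2, which encodes cyclooxygenase-2 (2.03 and 13.0), and of Tlr2, a receptor for bacterial lipoproteins (4.78 and 23.0). All 5 had their highest value of the 6 libraries in mock library 2. Marker sums moved as well from mock library 1 to 2. The sum of 12 monocyte and macrophage markers was 333 and 464 RPKM (6 of 12 under 1 RPKM in every library, Marco at 0), that of 12 dendritic markers 68.4 and 122 (Siglech, Xcr1, Zbtb46 and Ccr7 under 1 in every library) and that of 11 B-cell markers 22.5 and 34.2. The sums of progenitor markers (2930 and 2110), erythroid markers (406 and 188) and T and NK markers (91.4 and 50.8) went the other way. Single genes led several of these sums: Ly6c2 held 277 and 390 RPKM of the monocyte and macrophage sum, Mpo 1860 and 1320 of the progenitor sum, and Nkg7 87.7 and 47.1 of the T and NK sum, in which Cd3e, Cd3d, Cd3g, Cd4 and Cd8a were under 1. The rise of the dendritic sum lay mostly in Cd74 (7.55 and 35.3 RPKM), H2-Ab1 (8.62 and 19.0), H2-Aa and H2-Eb1. Bst2, the highest gene of that list (44.7 and 42.6), and Zbtb46 were lower in mock library 2. In bulk RNA a change in the share of a cell type and a change in RNA per cell cannot be told apart. The part of these cells, or of handling, in the levels of the 10 genes was not tested.

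**Figure D2:**
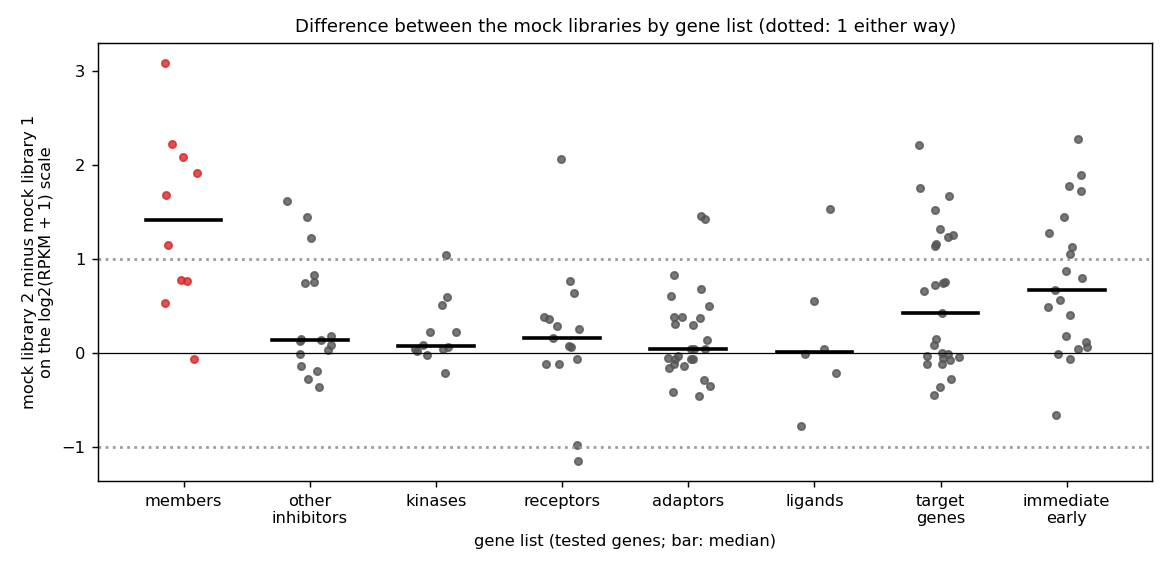
Difference between mock library 2 and mock library 1 on the log2(RPKM + 1) scale, with 1 point for each tested gene by list, bars at the median and dotted lines at 1 in either direction. The median of the 10 NF-kB genes (members) is 1.42, above those of the immediate-early genes (0.67), the target genes (0.43) and the other lists (0.02 to 0.16).

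Preleukemia against mock compares sorted Evi1 and mock cells at the same time after transplantation. The marker sums of other cell types also differed between these groups, as given below. Of the 10 genes, 3 fell (Tnfaip3, Nfkbia and Nfkbiz), none rose and 7 did not pass the test. Over all genes tested, 19.5% passed, of which more rose (13.5% of all) than fell (6.02%). The median difference of the 10 genes was -1.33, against 0.05 over all genes tested. In 6 of 10 genes (Nfkb2, Rel, Rela, Nfkbia, Nfkbiz and Tnfaip3) both preleukemia libraries lay below both mock libraries, as did 25.5% of all genes tested; in none did both lie above, against 37.2% of all. Which genes passed depended on the mock library used. Against mock library 2 alone, 9 of 10 fell (12.6% of all genes tested), with Nfkb1 at -0.21 (adjusted p = 0.109). Against mock library 1 alone, 4 fell (Nfkbia, Tnfaip3, Nfkbiz and Rel; 6.09% of all genes tested) and none rose (11.5%).

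Leukemia against mock compares the Evi1 cells at 6 months with the same controls. Here 3 of the 10 genes passed, against 25.6% of all genes tested: 2 fell (Tnfaip3 and Nfkbia; 13.5% of all genes tested fell), Nfkb1 rose (12.1% rose) and the other 7 did not pass. The median was -0.83, against -0.04 over all genes tested. Both leukemia libraries lay below both mock libraries for 5 genes (Nfkb2, Rel, Rela, Nfkbia and Tnfaip3; 35.5% of all genes tested) and above both for Nfkb1 (30% of all). Without mock library 1 the differences ran from -2.61 for Tnfaip3 to 0.38 for Nfkb1. Without mock library 2 they ran from -2.67 for Tnfaip3 to 0.91 for Nfkb1. Both comparisons share the mock libraries, so that their like values for Nfkbia and Tnfaip3 are not independent of each other.

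**Figure D3:**
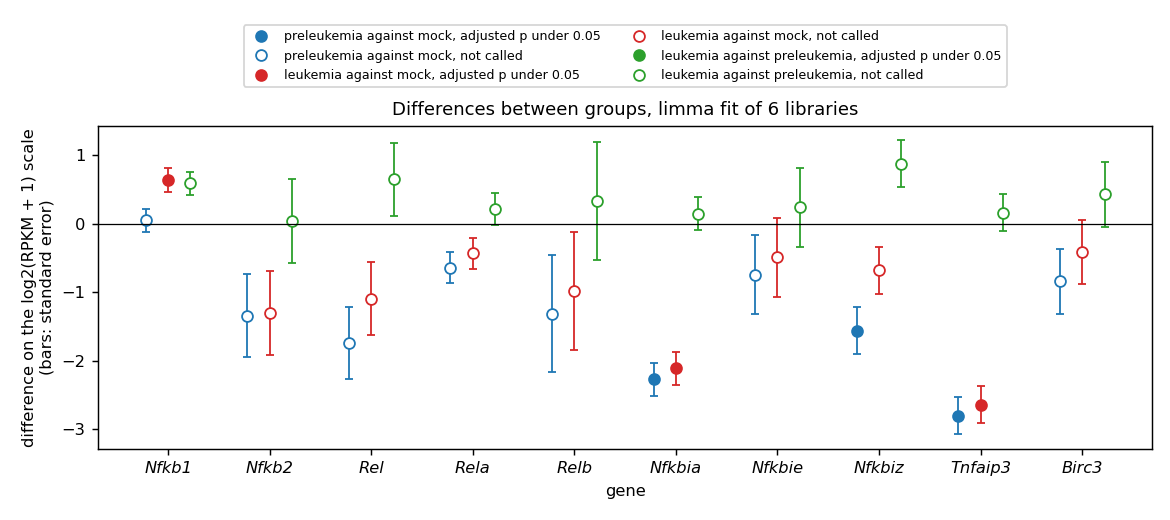
Differences between groups on the log2(RPKM + 1) scale from the limma fit of 6 libraries, with bars for the standard error and filled points for an adjusted p under 0.05. Filled points stand at Nfkbia (-2.27 and -2.11), Tnfaip3 (-2.80 and -2.64) and Nfkbiz (-1.56, preleukemia only) below 0, and at Nfkb1 in leukemia against mock (0.64) above it; no difference of leukemia from preleukemia is filled.

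**Figure D4:**
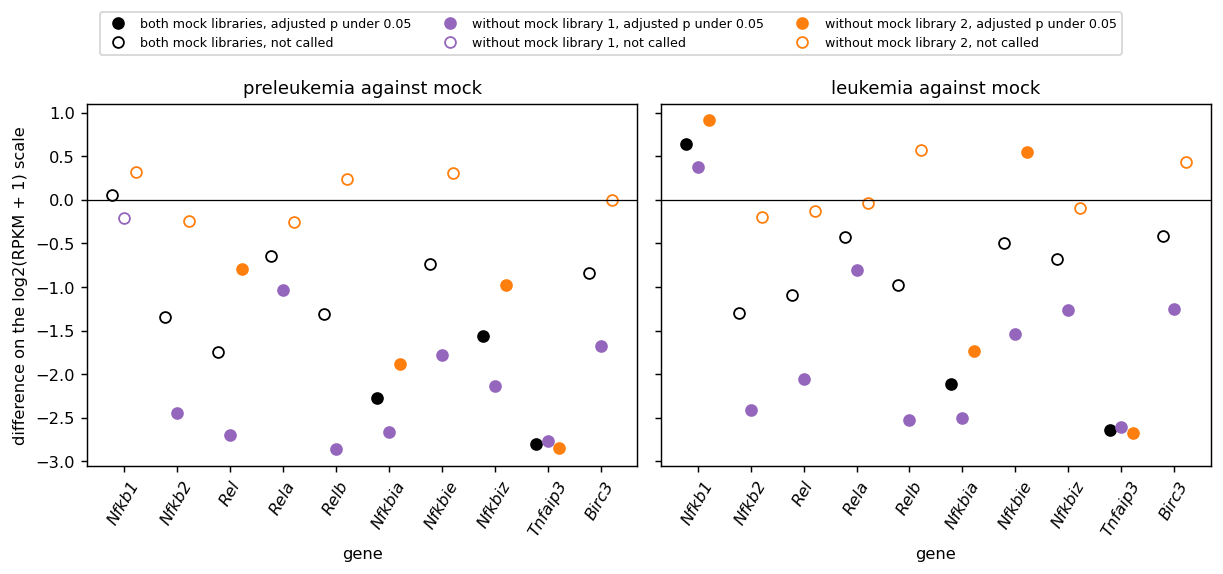
Differences from mock on the log2(RPKM + 1) scale with both mock libraries (black), without library 1 (purple) and without library 2 (orange), filled where the adjusted p was under 0.05. Fits without a mock library take the spread from the Evi1 pairs alone, so their filled points leave out the gap between the mock libraries. Tnfaip3 stays at -2.61 to -2.84 with either library left out, whereas Relb moves from -2.86 to 0.24 in preleukemia and from -2.52 to 0.57 in leukemia.

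Leukemia against preleukemia does not use the mock libraries except for the estimate of the spread. None of the 10 genes passed the test in either direction by limma, against 18.3% of all genes tested (5.27% rose and 13% fell). Without adjustment 2 would pass at 0.05, Nfkb1 and Nfkbiz. By limma with voom on the implied reads 1 gene rose, beside 794 of all genes tested. With array weights 2 rose, beside 1150 of all. The values nevertheless leaned one way: in 8 of 10 genes both leukemia libraries lay above both preleukemia libraries, as did 24.7% of all genes tested, and Nfkb2 and Tnfaip3 overlapped; in none did both lie below, against 46% of all. The median was 0.29, against -0.09 over all genes tested. The largest differences were those of Nfkbiz (0.88, SE 0.34, adjusted p = 0.128), Rel (0.65, SE 0.53, adjusted p = 0.44) and Nfkb1 (0.59, SE 0.17, adjusted p = 0.0552). When the spread was taken from these 4 libraries only, Nfkb1, Nfkbiz, Rel and Birc3 rose (9.47% of all genes tested), as they did with either mock library left out.

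Marker sums of several other cell types differed between the groups. The sum of 12 neutrophil markers, led by S100a8, was 18.2 and 22.7 RPKM in mock, 3900 and 8340 in preleukemia, with 433 and 744 in leukemia. Monocyte and macrophage markers summed to 314 and 351 RPKM in preleukemia, with 84.8 and 116 in leukemia, against 333 and 464 in mock. Ly6c2 alone held 264 and 301 RPKM of the preleukemia sum and 5.68 and 34.8 of the leukemia sum. Other genes of that list, named after their values were seen, were higher in leukemia: Cd68 stood at 23.1 and 23.3 RPKM in preleukemia and 45.2 and 49.6 in leukemia, and Csf1r at 16.9 and 15.2 against 27.1 and 20.4. Erythroid markers summed to 406 and 188 RPKM in mock, 233 and 158 in preleukemia, with 30.4 and 40.8 in leukemia. Car1 alone held 174 and 73.4 RPKM of the mock sum and 86.2 and 48.6 of the preleukemia sum. Hba-a1 (6.1 and 4.81 RPKM in mock, 31.6 and 21.1 in preleukemia), Hba-a2 and Slc4a1 were higher in preleukemia than in mock. Car2, Epor, Tfrc and Alas2 were lower there, and the rest of that list overlapped with mock. Megakaryocyte markers summed to 38.4 and 38.6 RPKM in mock, 77.5 and 58.1 in preleukemia, with 4.84 and 14.2 in leukemia. Pf4 alone held 9.24 and 11.6 RPKM of the mock sum and 43.7 and 30.9 of the preleukemia sum. Itga2b (17.3 and 16.6 RPKM in mock, 9.39 and 7.97 in preleukemia), Itgb3 and Treml1 were lower in preleukemia. Gp1ba overlapped with mock, and the rest of the list was higher in preleukemia. T and NK markers, mostly Nkg7, summed to 91.4 and 50.8 RPKM in mock, 71.2 and 71.0 in preleukemia, with 9.39 and 17.1 in leukemia. Mast cell and basophil markers summed to 118 and 96.3 RPKM in mock, 37.8 and 31.2 in preleukemia, with 19.4 and 19.9 in leukemia. The leukemia mean was 1.12 times the preleukemia mean for Nfkbia and 1.19 times for Tnfaip3, whose leukemia libraries (6.73 and 3.31 RPKM) overlapped with preleukemia (4.92 and 3.5). The part of the cell types of these markers in the differences from mock, or between the Evi1 groups, was not tested.

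The other genes of the pathway were counted on lists that were written with the earlier results known. Of 12 tested kinases, 1 rose and 1 fell in preleukemia, beside 13.5% and 6.02% of all genes tested. Their median was -0.07, against 0.05 over all genes tested. Ikbke, the IkB kinase epsilon of the interferon arm, stood at 5.5 and 5.39 RPKM in mock, 16.5 and 21.2 in preleukemia, with 4.73 and 5.96 in leukemia. It was high only in the preleukemia libraries: it rose by 1.61 against mock (SE 0.16, adjusted p = 0.00169) and was lower by 1.64 in leukemia than in preleukemia (adjusted p = 0.00233). Map3k14, which encodes NIK, stood at 3.52 and 4.32 RPKM in mock, 2.04 and 2.26 in preleukemia, with 3.58 and 3.46 in leukemia. Its fall in preleukemia of -0.64 (adjusted p = 0.0233) lost the test without any 1 library other than mock library 1 (-0.69 to -0.52, adjusted p from 0.0501 to 0.133). In leukemia against mock Ikbkg, the scaffold of the kinase complex, rose by 0.46 (adjusted p = 0.0403) and Chuk, the kinase IKK-alpha, changed by -0.40 (adjusted p = 0.0455). Both calls were lost without any 1 library other than mock library 1, with adjusted p from 0.0729 to 0.243 for Ikbkg and from 0.076 to 0.25 for Chuk.

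Of 15 tested receptors, 2 rose and 4 fell in preleukemia (median -0.16), beside 13.5% and 6.02% of all genes tested. In leukemia against mock 1 rose and 4 fell (median -0.27), beside 12.1% and 13.5% of all. Tlr4, the receptor for lipopolysaccharide, stood at 0.816 and 0.686 RPKM in mock, 4.0 and 6.12 in preleukemia, with 1.19 and 1.25 in leukemia. Like Ikbke it was highest in the preleukemia libraries, with a difference from mock of 1.77 (SE 0.19, adjusted p = 0.00258) and of leukemia from preleukemia of -1.42 (adjusted p = 0.00532). Tnfrsf1a, the main TNF receptor, stood at 28.2 and 36.6 RPKM in mock and 48.7 and 58.9 in preleukemia (0.72, adjusted p = 0.0222); this call was lost without preleukemia library 1 (0.85, 0.0604) or 2 (0.58, 0.159). Cd27, a TNF receptor family member of lymphocytes and early progenitors, fell from 12.5 and 5.82 RPKM in mock to 0.123 and 0.0874 in leukemia (-3.12, SE 0.32, adjusted p = 0.00139), where the leukemia values are below the level of 3 reads on 1 kb. Il1rl1, the interleukin-33 receptor, stood at 5.0 and 1.7 RPKM in mock and no higher than 0.162 in the Evi1 libraries. It passed the filter on low values only through the mock libraries, so against mock it could only be called lower. Its difference in preleukemia was -1.93 (adjusted p = 0.0129), lost without preleukemia library 1 (-2.00, 0.0637) or 2 (-1.87, 0.0907).

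Of 27 tested adaptors, 3 rose and 1 fell in preleukemia (median 0.13), beside 13.5% and 6.02% of all genes tested. Card9, an adaptor of fungal receptors, stood at 28.6 and 27.7 RPKM in mock, 50.6 and 59.4 in preleukemia, with 35.7 and 39.3 in leukemia, and its rise in preleukemia was 0.94 (SE 0.11, adjusted p = 0.00341). Ticam2, which links Tlr4 to the interferon arm, stood at 2.66 and 2.33 RPKM in mock, 0.421 and 0.2 in preleukemia, with 0.86 and 0.661 in leukemia. Only the mock libraries took it past the filter on low values, so against mock it could only be called lower. It was lower in all Evi1 libraries, by -1.42 in preleukemia (adjusted p = 0.00311) and -0.99 in leukemia (0.0076), the latter lost without leukemia library 2 (-0.91, 0.0561). In leukemia against mock 3 adaptors rose and 2 fell (median 0.08), beside 12.1% and 13.5% of all genes tested. Between preleukemia and leukemia none rose and 2 fell (median -0.05), beside 5.27% and 13% of all. One of these was Myd88, the common adaptor of Toll-like and interleukin-1 receptors, at 7.94 and 6.51 RPKM in preleukemia, with 2.79 and 4.09 in leukemia (-0.90, adjusted p = 0.0166). Its call was lost without preleukemia library 1 (-0.77, 0.108) or 2 (-1.02, 0.0729) or leukemia library 1 (-0.69, 0.108).

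The ligands moved in both directions. Of 6 tested, 3 rose and 1 fell in preleukemia (median 0.54), beside 13.5% and 6.02% of all genes tested. In leukemia against mock 1 rose and 1 fell (median 0.13), beside 12.1% and 13.5% of all. Tnf, the founding activator of the pathway and one of its targets, stood at 6.86 and 6.82 RPKM in mock, 0.252 and 0.423 in preleukemia, with 2.03 and 1.06 in leukemia. As for Tnfaip3, the mock libraries were level and every Evi1 library was below them, by -2.55 in preleukemia (SE 0.21, adjusted p = 0.001) and -1.65 in leukemia (adjusted p = 0.00272). Its level was higher in leukemia than in preleukemia by 0.90 (adjusted p = 0.028), a call lost without preleukemia library 1 (0.81, 0.144) or 2 (1.00, 0.113) or leukemia library 1 (0.62, 0.145). Ltb, a ligand of the slower route, stood at 0.732 and 1.53 RPKM in mock, 6.98 and 5.27 in preleukemia, with 10.8 and 11.5 in leukemia. It rose by 1.76 in preleukemia (adjusted p = 0.00347) and by 2.53 in leukemia (adjusted p = 0.00072), with all Evi1 libraries above both mock libraries. Tnfsf12, which encodes TWEAK, another ligand of that route, was at 1.52 and 1.59 RPKM in mock, 5.28 and 6.49 in preleukemia, with 1.51 and 1.52 in leukemia, and rose in preleukemia by 1.43 (SE 0.14, adjusted p = 0.00185).

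Of 17 tested inhibitors outside the 10 genes, 2 rose and 1 fell in preleukemia (median 0.02), beside 13.5% and 6.02% of all genes tested. In leukemia against mock none rose and 2 fell (median -0.16), beside 12.1% and 13.5% of all. Otulin, which removes linear ubiquitin chains, fell in both, by -0.48 (adjusted p = 0.0264) and -0.37 (adjusted p = 0.0486). Without any 1 library other than mock library 1 neither call held, with adjusted p from 0.0515 to 0.196 and from 0.0836 to 0.247. Pdlim2, a ubiquitin ligase for Rela in the nucleus, stood at 1.37 and 0.849 RPKM in mock, 3.35 and 4.17 in preleukemia, with 1.21 and 1.53 in leukemia. It rose in preleukemia by 1.18 (adjusted p = 0.00786), a call lost without preleukemia library 2 (1.05, 0.072). Nlrc5 stood at 9.98 and 17.5 RPKM in mock, 10.3 and 10.6 in preleukemia, with 3.8 and 4.13 in leukemia, and fell in leukemia by -1.52 (SE 0.23, adjusted p = 0.00534).

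Of 27 tested NF-kB target genes, 5 rose and 10 fell in preleukemia (median -0.66), beside 13.5% and 6.02% of all genes tested. In leukemia against mock 5 rose and 8 fell (median -0.28), beside 12.1% and 13.5% of all. Between preleukemia and leukemia 7 rose and 2 fell (median -0.21), beside 5.27% and 13%. Cxcl10, Sdc4 and Slc2a6 passed the filter on low values only through the mock libraries, so against mock they could only be called lower. Cxcl2, a neutrophil-attracting chemokine chosen for mention after its values were seen, stood at 15.8 and 56.1 RPKM in mock, 0.168 and 1.89 in preleukemia, with 0.542 and 0.193 in leukemia. Its differences from mock were -4.08 (SE 0.62, adjusted p = 0.00728) and -4.51 (adjusted p = 0.00368). Of the Evi1 libraries only preleukemia library 2 reached 1 RPKM for Cxcl2. It too passed the filter only with the mock libraries, so a call against mock could hardly be other than lower. The chemokines Ccl3 and Ccl4 had another pattern: both were below mock in preleukemia and higher again in leukemia, Ccl3 above both mock libraries and Ccl4 overlapping with them. Ccl3 stood at 23.8 and 40.8 RPKM in mock, 6.79 and 12.0 in preleukemia, with 90.9 and 81.2 in leukemia, a difference of leukemia from preleukemia of 3.11 (SE 0.30, adjusted p = 0.00236). Ccl4 stood at 15.8 and 15.1 RPKM in mock, 2.15 and 4.55 in preleukemia, with 19.9 and 14.9 in leukemia (2.12 between the Evi1 groups, adjusted p = 0.00438). Ebi3, a subunit of interleukin-27 and interleukin-35, went the other way from Nfkbia and Tnfaip3. It stood at 4.39 and 4.74 RPKM in mock, 13.8 and 15.0 in preleukemia, with 10.2 and 11.4 in leukemia. By limma its difference in preleukemia was 1.47 (SE 0.11, adjusted p = 0.000922). Ccnd1, which encodes cyclin D1, stood at 9.59 ± 0.584 RPKM in mock (SD, n = 2) and 29.8 and 25.7 in leukemia (1.44 by limma, adjusted p = 0.00362).

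Of 21 tested immediate-early genes, none rose and 7 fell in preleukemia (median -0.70), beside 13.5% and 6.02% of all genes tested. In leukemia against mock none rose and 4 fell (median -0.07), beside 12.1% and 13.5% of all. Between preleukemia and leukemia 5 rose and 1 fell (median 0.39), beside 5.27% and 13%. Egr1, an early growth response factor, stood at 45.5 and 47.8 RPKM in mock, 8.54 and 11.1 in preleukemia, with 41.0 and 60.7 in leukemia. It fell in preleukemia by -2.15 (SE 0.20, adjusted p = 0.00144) with the mock libraries level, and it overlapped with mock in leukemia. Jun, a subunit of the factor AP-1, stood at 197 and 214 RPKM in mock, 34.4 and 64.8 in preleukemia, with 72.8 and 89.4 in leukemia (-2.10 in preleukemia, SE 0.27, adjusted p = 0.00435). Their part in the lower Nfkbia and Tnfaip3 of preleukemia was not tested.

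**Figure D5:**
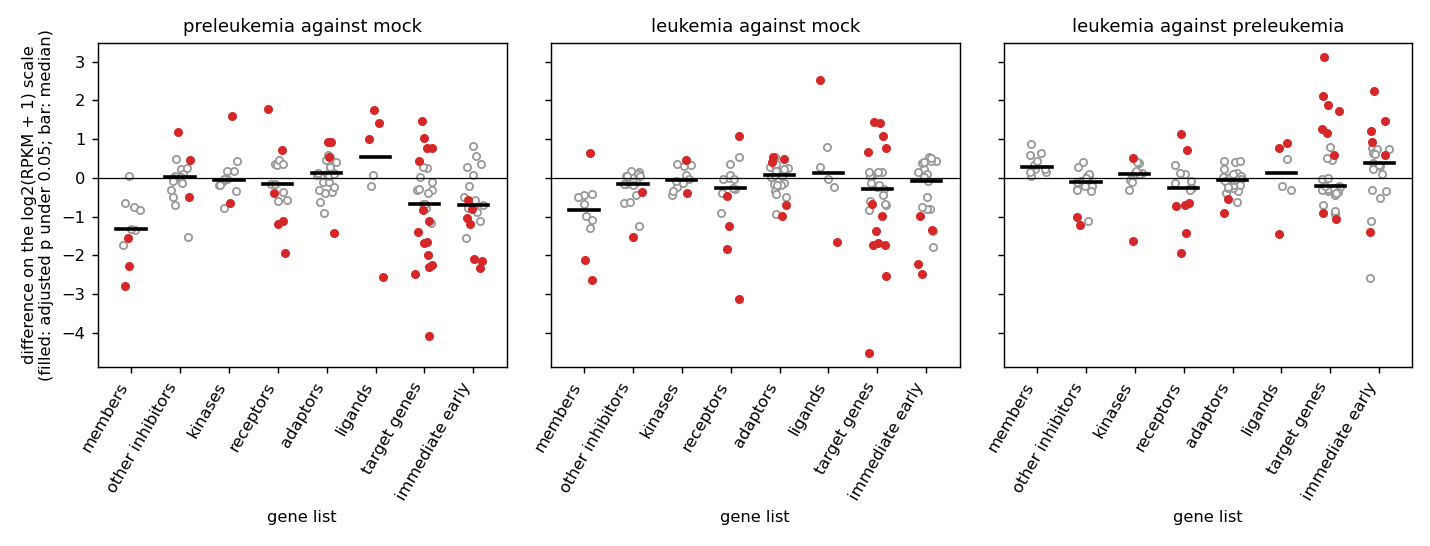
Differences on the log2(RPKM + 1) scale for each tested gene of the 10 NF-kB genes (members) and the pathway lists in the 3 comparisons, filled where the adjusted p was under 0.05, with bars at the median. In preleukemia against mock the median of the 10 genes is -1.33, below those of the immediate-early genes (-0.70), the target genes (-0.66) and the other lists (-0.16 to 0.54).

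The tested genes whose levels on the log2(RPKM + 1) scale were most like those of 4 of the 10 genes were found by Pearson's r over the 6 libraries, which share depth and mock pair. For Relb they were Ankrd11 (r = 0.9952), Kdm5a, Kdm6a, Cbfa2t2 and Nfkbie (0.9887), and for Nfkb2 they were Skil (0.9981), Lats1, Malt1, Uhrf2 and Fbxo38 (0.9950). All of these 10 had their highest value in mock library 2, so that their likeness rests on that library. Skil, an inhibitor of TGF-beta signalling, stood at 3.79 and 32.8 RPKM in mock and 2.47 to 2.86 in the Evi1 libraries. Malt1, a protease that activates NF-kB, stood at 7.82 and 23.3 RPKM in mock and 6.46 to 6.99 in the Evi1 libraries. For Nfkbia they were Trem1 (r = 0.9990), Bcr, Camk1d, 5031439G07Rik and Rap1a (0.9956). Trem1, a receptor that amplifies inflammation on myeloid cells, stood at 5.61 and 11.7 RPKM in mock and 0.0986 to 0.493 in the Evi1 libraries. For Tnfaip3 they were Gatad2a (r = 0.9970), Kif1c, Pced1b, Cirh1a and Fth1 (0.9936), with Pced1b at 6.34 and 6.8 RPKM in mock and 1.18 to 1.73 in the Evi1 libraries. These last 10 genes were higher in both mock libraries than in any Evi1 library, which follows from picking them for likeness to Nfkbia and Tnfaip3. Trem1 and Camk1d passed the filter on low values only through the mock libraries.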

How the data were processed

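The authors deposited 1 table with 1 value per gene and library, taken to be RPKM because low values, turned into reads with GENCODE M21 exon lengths, came out whole (tolerance 0.02 reads, under 20 reads) for 64.1% to 65.7% of genes, where chance gives 4%. The same steps gave the depths. Of the rows, 91.0% matched 1 gene of that release on GRCm38. Per the submitters' processing notes CASAVA 1.8.2 and GRCm38 were used, with no role named; which aligner, counting tool and annotation were used is not given in the sources used here. Per the labels' protocols, total RNA came from the Nucleospin RNA kit and libraries from the NEBNext Ultra RNA kit, which does not mark strand.

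Groups were compared with limma 3.58.1 (R 4.3.3) on log2(RPKM + 1), a scale that understates the changes of low genes. The 10958 genes that reached 1 RPKM in 2 or more libraries were tested. The fit used all 6 libraries, group means, no covariate and a moderated spread that follows the level (3 residual and 3.7 prior degrees of freedom). It was tested on simulated data in which all libraries had the same spread. That test does not cover the wider gap between the mock libraries. P-values are two-sided, adjusted by Benjamini-Hochberg over all genes tested within a comparison, with 0.05 as the threshold; SE is the same for the 3 comparisons of a gene. The 10 genes and the lists were chosen with earlier results of these data known. Named from the lists were the 3 genes with the smallest p in preleukemia against mock, the 2 in each leukemia comparison, the 5 with the largest mock difference and the 5 most like Relb, Nfkb2, Nfkbia and Tnfaip3. Not every gene so picked is described. Otulin and Adgre1 stand in the table under older symbols. The 18 alternatives changed the pseudocount, the filter, the scaling or the estimate of spread, used voom or a replicate block, or left out each library in turn.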

Additional observations from a re-analysis of the deposited data

How the results depend on the processing

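The falls of Nfkbia and Tnfaip3 in both comparisons with mock held under all 18 alternatives. With 1 library left out at a time, the 10 genes gave 2 to 9 that fell in preleukemia against mock, 2 to 9 that fell and 0 to 2 that rose in leukemia against mock, and 0 to 4 that rose in leukemia against preleukemia. The rise of Nfkb1 in leukemia against mock was lost with no filter and with only the 4 libraries compared (0 genes rose in each), and the fall of Nfkbiz in preleukemia against mock with no filter. In leukemia against preleukemia 1 gene rose under quantile normalization, 1 with equal medians and 1 with voom, 2 with array weights and 4 with the 4 libraries compared. Over all genes tested 966, 873, 794, 1150 and 1038 rose, in the same order. The difference of Nfkb1 between preleukemia and mock was -0.04 under quantile normalization, -0.02 under TMM-like scaling and -0.03 with equal medians. With 1 library left out it ran from -0.21 to 0.32. With 1 library left out, Relb ran from -2.86 to 0.24 in preleukemia and -2.52 to 0.57 in leukemia against mock, Nfkbie from -1.78 to 0.31 and -1.54 to 0.55, and Birc3 from -1.25 to 0.43 in leukemia against mock; the positive ends are those without mock library 2. Between the Evi1 groups Nfkb2 ran from -0.04 to 0.11 and Tnfaip3 from -0.26 to 0.58. The cause was not tested in any of these. Relb was not tested at a filter of 5 RPKM. Counts of called genes on the pathway lists moved by over 1.5 times in 235 of 756 fits of a list under an alternative.

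Over all genes 2140, 2809 and 2006 were called in preleukemia against mock, leukemia against mock and leukemia against preleukemia. With the 4 libraries compared the counts for preleukemia against mock and between the Evi1 groups were 1374 and 3428, with array weights 1421 and 3786, and without a filter the count between the Evi1 groups was 1302. With 1 library left out the 3 counts ran from 520 to 3873, 1046 to 3848 and 430 to 3449. Of the calls in preleukemia against mock 69.2% were higher, but 58.6% under TMM-like scaling, 52.9% under quantile normalization, 53.9% with equal medians and 59.8% with voom. In leukemia against preleukemia 28.8% were higher, but 42.0%, 50.8%, 46.3% and 44.7% in the same order. Quantile normalization moved the median of all genes there from -0.09 to 0.03. Replicate numbers did not pair the libraries (correlations of deviations of 0.116 for mock with preleukemia, 0.0125 for mock with leukemia and 0.179 for preleukemia with leukemia). With the replicate number as a block, 3 of the 10 genes fell in preleukemia against mock, 2 fell and 1 rose in leukemia against mock and 0 changed between the Evi1 groups, as without it, and 2118, 2932 and 2060 of all genes were called. Depth limited Relb most among the 4 of the 10 genes whose reads could be recovered, with 72 to 146 reads in every library but mock library 2.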

Other observations

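Levels relative to Rela within a library were computed after the values were seen, since a ratio within a library does not depend on its scaling. Nfkbia stood at 2.89 and 2.87 times Rela in the mock libraries, 0.901 and 0.929 times in preleukemia, with 0.901 and 0.848 times in leukemia, so on this measure the mock libraries, which differed 1.72-fold in Nfkbia itself, were level. Nfkb1 stood at 1.13 and 0.95 times Rela in mock, 1.75 and 1.66 in preleukemia, with 2.24 and 2.18 in leukemia, with no overlap between the groups. Tnfaip3 stood at 1.2 and 0.662 in mock and 0.115 to 0.229 in the Evi1 libraries. Relb stood at 0.0286 and 0.286 in mock and 0.0414 to 0.0663 in the Evi1 libraries, and Nfkb2 at 0.277 and 0.814 in mock and 0.244 to 0.281 in the Evi1 libraries, so for these mock library 2 stood apart on this measure too. These ratios show unequal change within a library, not that Rela was constant, and were not tested.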
